A study of Mus musculus with 6 samples.

Results

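The insulin-like growth factor (IGF) system was followed through 10 mouse genes, taken by symbol from 48368 symbols in the count tables: the ligands Igf1 and Igf2, the receptors Igf1r and Igf2r, and the binding proteins Igfbp2 to Igfbp7. The 10 genes were chosen by their role in the system with the KO against HET values of these same libraries, Igf1 above all, already known, so their differences between labels are given as a description and the choice itself is no evidence of a direction.

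IGF1 and IGF2 are small secreted growth factors that act through the IGF1 receptor, a tyrosine kinase that signals through IRS adaptors, PI3-kinase and AKT. The IGF2 receptor, which is also the cation-independent mannose 6-phosphate receptor, takes up IGF2 for breakdown in lysosomes. Secreted binding proteins hold most IGF outside cells, and proteases release it. Fibroblasts of the mammary gland and its tumours are a known source of IGF1.

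RNA was measured in 6 libraries of cultured cancer-associated fibroblasts, which are the fibroblasts that live within a tumour. There were 3 libraries labelled KO, from Hic-5-/- tumours, and 3 labelled HET, from Hic-5+/- tumours. No library labelled wild type was analysed here. Both labels shared the MMTV-PyMT transgene, in which a mammary tumour virus promoter drives polyomavirus middle T antigen in mammary epithelium. Single fibroblasts were separated from digested tumours by centrifugation and grown in medium with serum, and no sort was named. Total RNA was depleted of ribosomal RNA and made into stranded libraries, and totals ran from 24954273 to 42470598 estimated counts. The series text calls the libraries technical triplicates, while their titles carry different numbers apart from 1 number shared by replicate 3 of each label. P-values therefore measure only the spread between these libraries, which may be technical.

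Tgfb1i1, which encodes Hic-5, a focal adhesion adaptor, was near absent from 1 of the 3 KO-labelled libraries. Its level was 90.4, 0.232 and 156 CPM (estimated counts relative to the library total, scaled between libraries by TMM factors) in KO-labelled replicates 1 to 3, against 223, 348 and 125 CPM in HET-labelled replicates 1 to 3. The labels overlapped, since KO replicate 3 lay above HET replicate 3. Whether the mutant allele leaves a transcript was not given in the sources used here, so KO and HET below are names of labels. KO replicate 2 also stood apart in cell type markers: it held 0.491 CPM of Col1a2 and 0.775 CPM of Dcn, both fibroblast matrix genes, and 37.9 CPM of the epithelial keratin Krt18. In the other libraries Col1a2 was at least 577 CPM, Dcn at least 55.1 CPM and Krt18 at most 2.93 CPM. Of the whole lists, 7 of 10 fibroblast markers were lowest and 8 of 10 epithelial markers highest in KO replicate 2. The exceptions include Col3a1 at 21.8 CPM and Fbn1 at 25.1 CPM, above the 9.44 and 15.5 CPM of KO replicate 1, Vim at 2870 CPM, within the range of the others, and the keratin Krt19, which was lowest there at 0.542 CPM. Leukocyte markers were high in 1 library of each label, summing over 10 genes to 1139 CPM in KO replicate 3 and 1442 CPM in HET replicate 2, with all 10 genes at 3 counts or more. In the other libraries the sum was 17.1 to 50.6 CPM, with 4 to 6 of the 10 genes at that level. Lyz2 made most of the sum in KO replicate 3 and HET replicate 2, at 1037 and 1257 CPM. Cd14, at 17.7 and 16.7 CPM there, was close to the 16.1 CPM of KO replicate 1.

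The promoters of 4 members are shown. The one for Igf1 is at a start inside the gene, which begins at base 87858265, and the region before that base was not searched. Igf1, Igfbp6 and Igfbp7 are the members for which every KO-labelled library lay below every HET-labelled one, and Igfbp4 is the member with the second widest range over libraries. Each run holds 250 bases before and 50 bases after a RefSeq transcription start (GRCm38.p6), 5′ to 3′ on the gene's strand. Capitals mark every match, on either strand, to the motifs searched. They are chr10:87860861-87861160 on the plus strand for Igf1, chr15:102143936-102144235 on the plus strand for Igfbp6, chr5:77407996-77408295 on the minus strand for Igfbp7 and chr11:99040994-99041293 on the plus strand for Igfbp4.
Igf1: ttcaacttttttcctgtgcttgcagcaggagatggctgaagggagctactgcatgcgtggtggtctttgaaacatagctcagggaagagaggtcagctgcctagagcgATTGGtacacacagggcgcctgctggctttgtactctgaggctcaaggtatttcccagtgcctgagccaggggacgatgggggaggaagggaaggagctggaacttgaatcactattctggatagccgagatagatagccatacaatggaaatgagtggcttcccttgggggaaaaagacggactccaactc
Igfbp6: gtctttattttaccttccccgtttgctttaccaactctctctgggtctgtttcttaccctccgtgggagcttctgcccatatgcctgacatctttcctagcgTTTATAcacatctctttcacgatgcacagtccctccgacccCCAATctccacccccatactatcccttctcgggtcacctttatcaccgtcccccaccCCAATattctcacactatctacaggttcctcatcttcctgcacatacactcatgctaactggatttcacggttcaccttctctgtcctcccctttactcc
Igfbp7: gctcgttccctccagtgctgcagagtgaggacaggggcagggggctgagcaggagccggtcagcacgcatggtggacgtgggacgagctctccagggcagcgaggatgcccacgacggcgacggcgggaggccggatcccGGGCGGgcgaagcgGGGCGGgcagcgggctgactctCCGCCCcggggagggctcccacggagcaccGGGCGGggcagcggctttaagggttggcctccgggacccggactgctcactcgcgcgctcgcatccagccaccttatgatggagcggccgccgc
Igfbp4: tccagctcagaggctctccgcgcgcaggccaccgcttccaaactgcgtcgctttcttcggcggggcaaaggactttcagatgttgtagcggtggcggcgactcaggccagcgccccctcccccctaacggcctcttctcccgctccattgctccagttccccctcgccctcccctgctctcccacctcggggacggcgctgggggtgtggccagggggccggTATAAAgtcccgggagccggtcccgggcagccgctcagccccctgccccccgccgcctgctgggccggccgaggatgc

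The motifs searched, on both strands, were TATAAA for the TATA box, CCAAT for the box of that name, GGGCGG for the GC box, CACGTG for a palindromic E-box, GTAAACA for forkhead factors, TGACTCA for AP-1 and GGAATG for TEAD, and no 2 of the marked matches overlapped. Igf1 held 1 CCAAT, read on the opposite strand, 142 bases before its start inside the gene. Igfbp6 held CCAAT 107 and 50 bases before its RefSeq start, which lies outside the gene as located here, and TATAAA on the opposite strand at 148 bases. Igfbp7 held GGGCGG at 110, 96 and 44 bases and, on the opposite strand, at 74 bases before the start. Igfbp4 held TATAAA 28 bases before its start. No motif of the set stood in all of the windows shown for Igf1, Igfbp6 and Igfbp7. Over 14 windows of the 10 members, GGGCGG was found in 6, GGAATG in 4, CCAAT in 3, TATAAA in 2, CACGTG in 2, TGACTCA in 1 and GTAAACA in 0. Among all 32851 RefSeq windows the shares were 35.7% for GGGCGG, 14.7% for GGAATG, 37.4% for CCAAT, 13.6% for TATAAA, 7.15% for CACGTG, 5.2% for TGACTCA and 3.65% for GTAAACA. Igf2 had several of the member windows, so counted by gene GGGCGG was in 5 members and GGAATG in 2, Igf2 and Igfbp5. A match describes letters in a window and is not a site of binding. GC content was 52.3% for Igf1, 49.7% for Igfbp6, 73.3% for Igfbp7 and 71.3% for Igfbp4, against a median of 52.7% over all windows.

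Igf1 had the widest gap between its lowest HET-labelled and highest KO-labelled library among the members. Igf1 (chromosome 10, 87858265 to 87937042, plus strand, GRCm38) stood at 18.5, 11.3 and 25.9 CPM in KO-labelled replicates 1 to 3, against 304, 137 and 117 CPM in HET-labelled replicates 1 to 3. All 3 KO-labelled libraries were low, all 3 HET-labelled libraries were high, and the lowest HET-labelled library held 4.52 times the highest KO-labelled one. Igf1 averaged 18.6 ± 7.34 CPM in KO-labelled and 186 ± 102.5 CPM in HET-labelled libraries (SD, n = 3 each). The log2 fold change, KO over HET, was -3.33 ± 0.51 (SE). The edgeR quasi-likelihood test over 17584 genes gave an unadjusted p of 0.000501 and an adjusted p of 0.579, so Igf1 did not pass the threshold of 0.05. DESeq2 gave an adjusted p of 1.32e-06. Without KO replicate 2 the log2 fold change was -3.07, without KO replicate 3 it was -3.64, without HET replicate 2 it was -3.51, and the smallest value on leaving out a library was -2.77, without HET replicate 1.

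Igf2, the fetal growth factor expressed from the paternal allele, varied over a far wider range. Igf2 (chromosome 7, 142650766 to 142666816, minus strand) stood at 6.26, 220.3 and 7.61 CPM in KO-labelled replicates 1 to 3, against 0.531, 16.5 and 39.4 CPM in HET-labelled replicates 1 to 3. The labels overlapped: KO replicate 2 was highest, 5.59 times the next library, and HET replicate 1 was lowest with 15 estimated counts. The log2 fold change was 2.05 ± 1.77 and turned to -1.44 without KO replicate 2. H19, the imprinted noncoding RNA 72.6 kb from Igf2 and expressed from the maternal allele, was also highest in KO replicate 2, at 0.546, 73.0 and 11.5 CPM in KO-labelled replicates against 0.425, 2.76 and 1.77 CPM in HET-labelled replicates 1 to 3. The antisense transcript Igf2os had 0, 38.1 and 1 estimated counts in KO-labelled replicates, against 0, 6 and 8 in HET-labelled replicates. Whether counting used strand was not given in the sources used here, so reads of Igf2 and Igf2os may not be separated.

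Set per kilobase of exon, the order of the 2 ligands differed between libraries. Igf1 was 1.71, 0.0295 and 1.97 times Igf2 in KO-labelled replicates 1 to 3, against 330.4, 4.79 and 1.72 times in HET-labelled replicates 1 to 3. Igf2 was thus the larger ligand transcript in KO replicate 2, and Igf1 in the other 5 libraries. This order depends on the length used: on the authors' deposited RPKM, per genomic span, Igf1 over Igf2 was 0.602, 0.0104 and 0.694 in KO-labelled replicates and 116.5, 1.69 and 0.607 in HET-labelled replicates, so that Igf2 was the larger in 4 of 6 libraries. The ligand sum was 2.96, 39.6 and 3.95 CPM per kilobase in KO-labelled replicates, against 30.8, 16.7 and 18.7 CPM per kilobase in HET-labelled replicates. KO replicate 2, whose sum was nearly all Igf2, was the highest of the 6 libraries, and the other 2 KO-labelled libraries were the lowest.

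The receptors differed little between labels and were the steadiest members. Igf1r (chromosome 7, 67952827 to 68233668, plus strand), which encodes the signalling receptor, stood at 174, 169.5 and 149 CPM in KO-labelled replicates 1 to 3, against 75.2, 223 and 182 CPM in HET-labelled replicates 1 to 3. The labels overlapped, and HET replicate 1 was the low library. The log2 fold change was 0.04 ± 0.40. Igf2r (chromosome 17, 12682406 to 12769664, minus strand), the clearance receptor, stood at 137, 54.0 and 87.3 CPM in KO-labelled replicates, against 123, 101 and 60.4 CPM in HET-labelled replicates. Its labels overlapped as well, and its log2 fold change was -0.04 ± 0.41. Over the 6 libraries Igf1r varied 2.97-fold and Igf2r 2.53-fold, against 12.9-fold to 2153-fold for the other 8 members. Summed per kilobase of exon, the receptors were 25.1, 15.9 and 18.3 CPM in KO-labelled replicates and 17.7, 24.2 and 17.4 CPM in HET-labelled replicates. A difference this small does not show that the labels are alike, since the SE leaves room for changes of either sign.

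**Figure D1:**
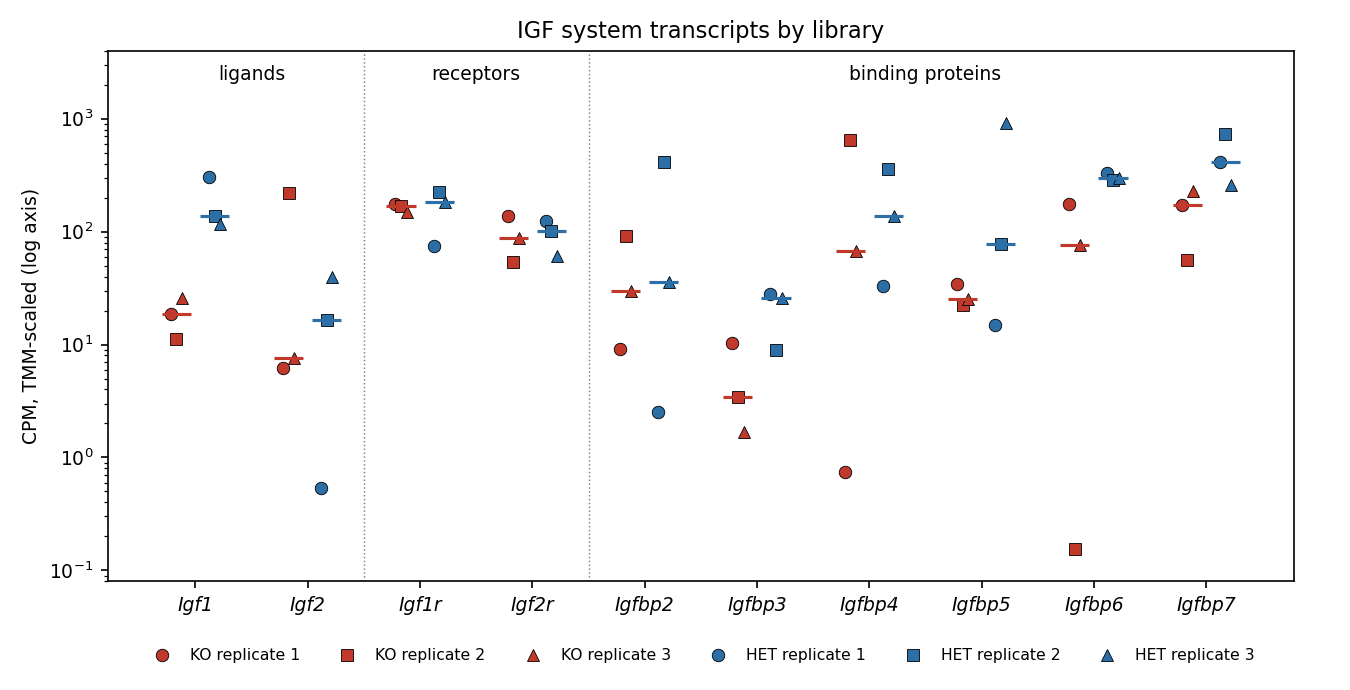
Each point is the TMM-scaled CPM of an IGF system gene in 1 library on a log axis, with KO-labelled libraries in red left of HET-labelled libraries in blue and a bar at the median of each label. The colours separate fully for Igf1, Igfbp6 and Igfbp7, while Igf1r and Igf2r stay within a narrow band. KO replicate 2 is the square far from its label for Igf2 and Igfbp6. For Igfbp4 the far KO-labelled point is the circle of KO replicate 1.

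Igfbp6 and Igfbp7 were the most abundant members per kilobase of exon and were lower in every KO-labelled library. Igfbp6 (chromosome 15, 102144362 to 102149511, plus strand) encodes the binding protein that prefers IGF2. It stood at 176, 0.155 and 76.9 CPM in KO-labelled replicates 1 to 3, against 334, 289 and 299 CPM in HET-labelled replicates 1 to 3. The HET-labelled libraries lay close together, the KO-labelled libraries were spread below them, and KO replicate 2 held 6 estimated counts. The log2 fold change was -1.86 ± 1.58, and -1.28 without KO replicate 2. Igfbp7 (chromosome 5, 77349240 to 77408041, minus strand), a matrix-associated relative that binds IGFs weakly, stood at 171, 56.4 and 230 CPM in KO-labelled replicates, against 411, 726 and 260 CPM in HET-labelled replicates. The labels were separate by a narrow margin, since HET replicate 3 held 1.13 times KO replicate 3. The log2 fold change was -1.61 ± 0.61, and -1.23 without KO replicate 2.

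Igfbp3 and Igfbp5 had lower means under the KO label with overlapping libraries. Igfbp3 (chromosome 11, 7206086 to 7213923, minus strand), the main IGF carrier of blood, stood at 10.4, 3.46 and 1.67 CPM in KO-labelled replicates 1 to 3, against 27.9, 8.93 and 25.7 CPM in HET-labelled replicates 1 to 3. KO replicate 1 lay just above HET replicate 2, and the log2 fold change was -2.004 ± 0.773. Igfbp5 (chromosome 1, 72857932 to 72874884, minus strand), a binding protein known from mammary involution, stood at 34.4, 22.2 and 25.3 CPM in KO-labelled replicates, against 15.1, 77.4 and 924 CPM in HET-labelled replicates. The 3 KO-labelled libraries lay within the range of the HET-labelled ones. HET replicate 3 held 11.9 times the next library, and the log2 fold change of -3.63 ± 1.41 came to -0.75 without it.

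Igfbp2 and Igfbp4 followed single libraries more than labels. Igfbp2 (chromosome 1, 72824503 to 72852474, plus strand), which lies 5.46 kb from Igfbp5 and is read towards it, stood at 9.08, 92.2 and 29.9 CPM in KO-labelled replicates 1 to 3, against 2.52, 411 and 35.6 CPM in HET-labelled replicates 1 to 3. Both labels held a high library, replicate 2 of each, and the log2 fold change of -1.77 ± 1.63 became 1.199 without HET replicate 2. The neighbours Igfbp2 and Igfbp5 peaked in different libraries, Igfbp2 in HET replicate 2 and Igfbp5 in HET replicate 3. Igfbp4 (chromosome 11, 99041244 to 99054392, plus strand), the substrate of the protease PAPP-A, stood at 0.751, 649 and 67.3 CPM in KO-labelled replicates, against 32.9, 358 and 138 CPM in HET-labelled replicates. KO-labelled libraries were both the highest and the lowest, 864-fold apart. The log2 fold change was 0.44 ± 1.78 and became -2.40 without KO replicate 2.

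Over the 10 members, 7 had a log2 fold change below 0, where 49.1% of all 17584 genes tested did, and the median was -1.69 against 0.01 over all genes. All 10 passed the filter on low counts. With edgeR, 0 members passed the adjusted threshold, where 0% of all genes tested did. At an unadjusted p under 0.05 edgeR gave 4 members, Igf1, Igfbp3, Igfbp5 and Igfbp7, all lower under the KO label. Such a p was found for 1511 genes, or 8.59% of those tested, and for 4.29% on the lower side, and limma-voom called 0 genes. DESeq2 called 1 member, Igf1, where it called 1.18% of 18097 genes and 0.845% as lower. Every KO-labelled library lay below every HET-labelled one for 3 members, where 7.42% of genes did so, and above for 0 members, where 8.1% did. Because the members were taken with this contrast known, nothing is read from these counts. Without KO replicate 2, 8 members were lower under the KO label.

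**Figure D2:**
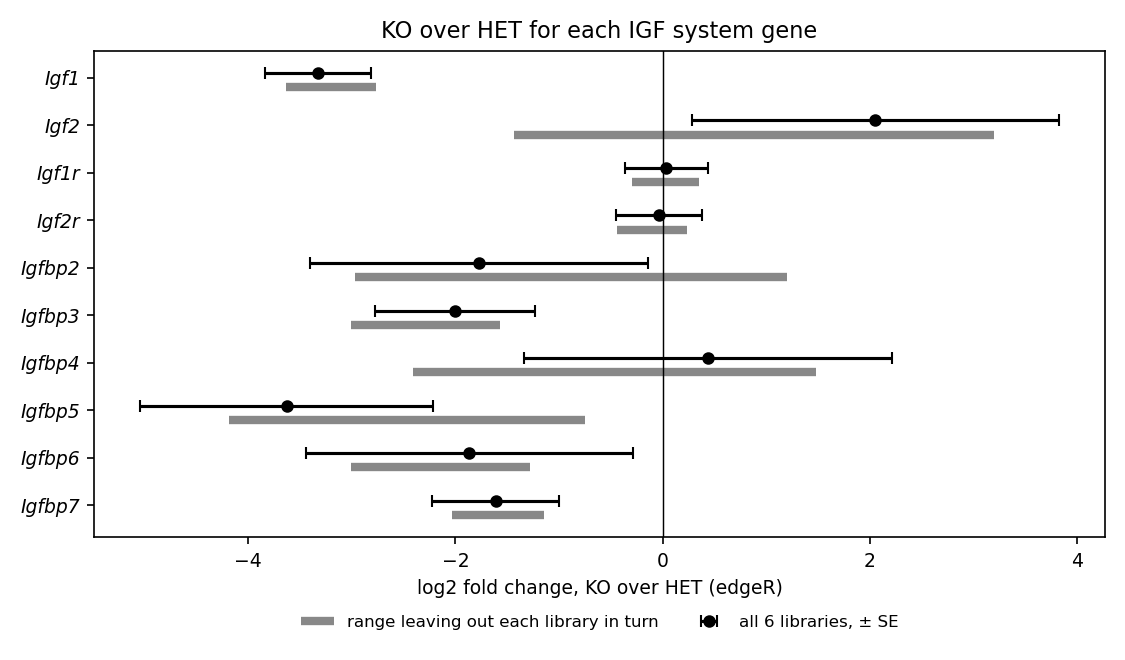
Black points are the edgeR log2 fold changes, KO over HET, of each IGF system gene with all 6 libraries, with bars for ± SE, and grey bars give the range when each library is left out in turn. Igf1 stays between -3.64 and -2.77, Igfbp7 between -2.04 and -1.14, and the grey bars of Igf2, Igf1r, Igf2r, Igfbp2 and Igfbp4 cross 0.

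Levels of different members were compared only as CPM per kilobase of exon (GENCODE M21 exon union), averaged over all 6 libraries with the SD between them. The order was Igfbp7 at 255.5 ± 194, Igfbp6 at 176 ± 121, Igfbp2 at 52.3 ± 85.02, Igfbp4 at 47.0 ± 56.8 and Igfbp5 at 30.5 ± 60.5. Below these came Igf1 at 10.3 ± 11.4, Igf2r at 10.1 ± 3.56, Igf1r at 9.66 ± 2.92, Igf2 at 8.46 ± 14.9 and Igfbp3 at 4.16 ± 3.58. Each neighbouring pair in this order differed by less than the larger of its SDs, except Igfbp6 over Igfbp2, where the difference was slightly larger than either. Counts may include intronic reads, which would raise long genes on this scale. Igfbp7 spans 58.8 kb with 1.21 kb of exon, and Igfbp6 spans 5.15 kb with 1.11 kb of exon.

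Singly, only Igfbp6 and Igfbp7 of the binding proteins separated the labels, and the summed level of all 6 was lower in every KO-labelled library. It was 313.5, 248.4 and 295.4 CPM per kilobase in KO-labelled replicates 1 to 3, against 660.1, 1180 and 696.1 CPM per kilobase in HET-labelled replicates 1 to 3. The labels did not overlap on this scale. On the authors' deposited RPKM they did not overlap either, at 34.5, 49.3 and 21.9 in KO-labelled replicates and 60.1, 88.7 and 107 in HET-labelled replicates, but there the KO-labelled sums were further apart. The separation rested on Igfbp6 and Igfbp7. In KO replicate 2 Igfbp4 alone stood at 146.9 CPM per kilobase. In HET replicate 1 Igfbp2, Igfbp3, Igfbp4 and Igfbp5 stood at 1.36, 8.92, 7.46 and 2.51 CPM per kilobase. Without Igfbp6 and Igfbp7 the summed levels thus overlapped between labels. Igfbp6 was the largest part of the sum in KO replicate 1 (50.5%), Igfbp4 in KO replicate 2 (59.1%) and Igfbp7 in KO replicate 3 (64.3%). Among HET-labelled libraries Igfbp7 led in replicates 1 and 2 (51.5% and 50.9%) and Igfbp6 in replicate 3 (38.6%). On this scale Igfbp7 and Igfbp6 were the top pair in every library but KO replicate 2, and in HET replicate 3 Igfbp5 came next at 22.1%. On deposited RPKM Igfbp6 led every library but KO replicate 2, and next to it stood Igfbp4 in KO replicate 3 and HET replicate 2 and Igfbp5 in HET replicate 3. In KO replicate 2 Igfbp6 made 0.0561% of the sum, Igfbp2 20.1% and Igfbp7 18.8%. Igfbp3 was at most 1.35% in any library.

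**Figure D3:**
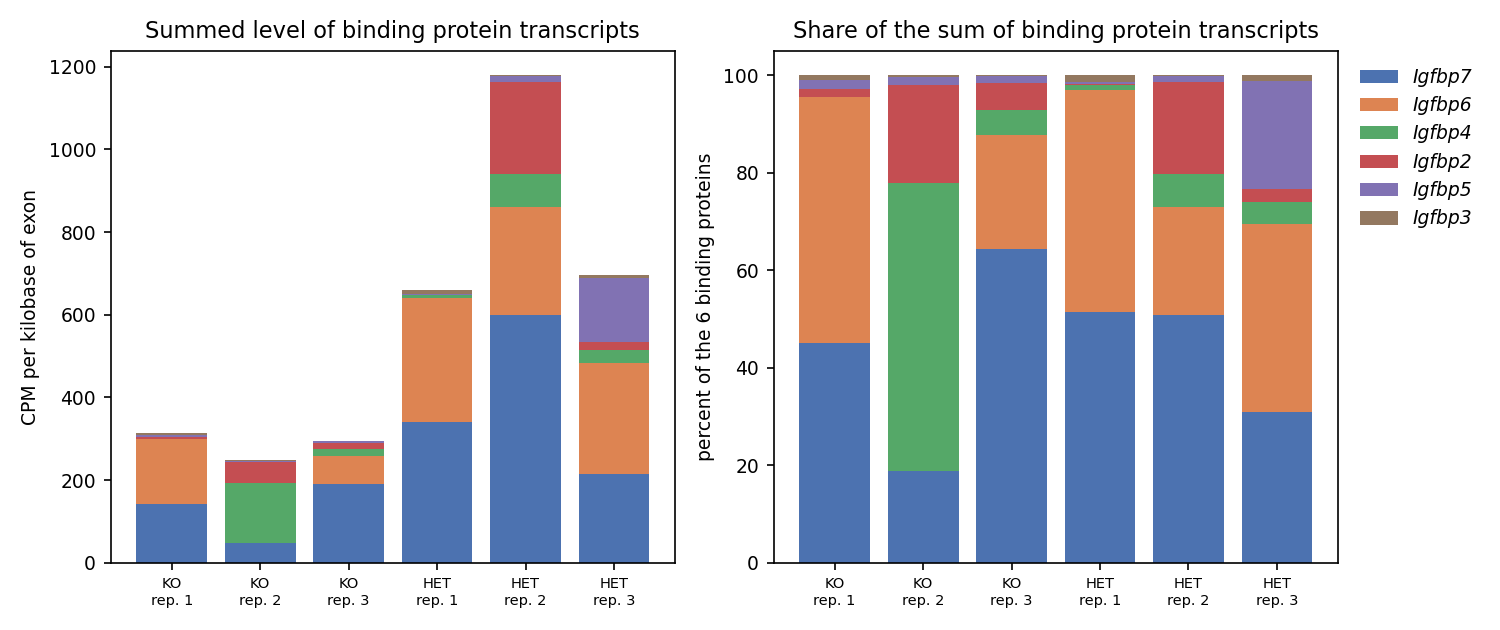
Stacked bars give the level of each binding protein transcript in each library, KO-labelled libraries left of HET-labelled ones, as CPM per kilobase of exon on the left and as percent of the 6 summed on the right. The 3 KO-labelled bars end between 248.4 and 313.5, below the lowest HET-labelled bar at 660.1, and KO replicate 2 alone is mostly Igfbp4.

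Set against the ligands, binding protein transcripts were 106, 6.27 and 74.8 times the ligand sum in KO-labelled replicates 1 to 3, against 21.5, 70.7 and 37.2 times in HET-labelled replicates 1 to 3. The labels overlapped, also on the authors' deposited RPKM, where the ratios were 65.4, 3.99 and 33.3 in KO-labelled replicates and 20.3, 42.0 and 33.5 in HET-labelled replicates. The highest and the lowest ratio stood under the KO label on both scales. RNA levels do not give the amount of secreted protein.

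Other genes of the pathway were read from lists set by role, and edgeR called 0 of them at an adjusted p under 0.05. Among regulators of the binding proteins, 5 of 8 genes were tested, of which 3 had a log2 fold change below 0 and 2 above, with a median of -0.94. Pappa, the protease that cuts IGFBP4, stood at 1.55, 11.8 and 18.0 CPM in KO-labelled replicates 1 to 3, against 17.9, 204.9 and 43.9 CPM in HET-labelled replicates 1 to 3. The labels overlapped, with KO replicate 3 just above HET replicate 1, and the log2 fold change was -3.09 ± 1.19 with an unadjusted edgeR p of 0.0382. Stc1 and Stc2 encode stanniocalcins, which inhibit PAPP-A. Stc1 had a log2 fold change of -1.57 ± 0.86 and Stc2 of 1.74 ± 0.94, and both overlapped between labels. Htra1, a secreted serine protease, had a log2 fold change of -0.94 ± 0.70. Igfbp1, Igfals and Igfbpl1 had at most 5 estimated counts in any library and were not tested.

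Of 35 genes of insulin and IGF receptor signalling, 34 were tested, 22 with a log2 fold change below 0 and 12 above, with a median of -0.13. The labels did not overlap for 8 of them, 4 lower and 4 higher under the KO label, to be read against 7.42% and 8.1% of all genes. Insr, the insulin receptor, stood at 44.9, 48.2 and 32.3 CPM in KO-labelled replicates 1 to 3, against 25.8, 26.2 and 31.0 CPM in HET-labelled replicates 1 to 3, and its log2 fold change was 0.60 ± 0.23. Irs2, an adaptor that both receptors phosphorylate, stood at 18.0, 42.2 and 17.4 CPM in KO-labelled replicates, against 8.29, 14.4 and 12.9 CPM in HET-labelled replicates, a log2 fold change of 1.12 ± 0.44. Every KO-labelled library was above every HET-labelled one for these 2 genes. Rps6kb1, the S6 kinase, lay the other way at 54.8, 60.7 and 53.0 CPM under the KO label against 68.9, 86.6 and 89.8 CPM under the HET label, a log2 fold change of -0.54 ± 0.18. Foxo4, a transcription factor that AKT keeps out of the nucleus, stood at 33.4, 19.2 and 21.9 CPM in KO-labelled replicates, against 36.0, 54.8 and 49.5 CPM in HET-labelled replicates, a log2 fold change of -0.91 ± 0.29. Their smallest adjusted edgeR p was 0.579.

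Of 12 genes that FOXO factors are known to activate, 11 were tested, 8 with a log2 fold change below 0 and 3 above, with a median of -0.38. Txnip, an inhibitor of thioredoxin and of glucose uptake, stood at 195, 93.7 and 141 CPM in KO-labelled replicates 1 to 3, against 405, 329 and 401 CPM in HET-labelled replicates 1 to 3. The labels were well apart, and the log2 fold change was -1.40 ± 0.32. DESeq2 gave Txnip an adjusted p of 0.0295 and edgeR an adjusted p of 0.579. Bcl2l11, which encodes the apoptosis inducer BIM, was above in every KO-labelled library, with a log2 fold change of 0.70 ± 0.31. Over the list, 2 genes lay below and 1 above in every KO-labelled library, to be read against 7.42% and 8.1% of all genes. Ccng2, a cyclin of arrested cells, had a log2 fold change of -0.69 ± 0.30 and Fbxo32, a ubiquitin ligase of muscle wasting, of -1.60 ± 0.72, and both overlapped between labels.

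The growth hormone axis drives Igf1 in liver, and its 6 listed genes were all tested, 2 with a log2 fold change below 0 and 4 above, with a median of 0.07. Socs2, a feedback inhibitor that growth hormone induces, stood at 40.9, 104.7 and 45.4 CPM in KO-labelled replicates 1 to 3, against 33.3, 36.6 and 6.08 CPM in HET-labelled replicates 1 to 3. Every KO-labelled library was above every HET-labelled one, and the log2 fold change was 1.33 ± 0.71. Ghr, the growth hormone receptor, had a log2 fold change of 0.25 ± 0.25, Jak2 of -0.27 ± 0.27 and Stat5b of 0.10 ± 0.27. Of 6 genes of the Igf2 locus and of IGF2 mRNA binding, 5 were tested, 2 below 0 and 3 above, with a median of 0.48. H19 had a log2 fold change of 4.10 ± 1.62, Igf2bp2 of 0.48 ± 0.30, Igf2bp1 of 0.81 ± 0.58 and Igf2bp3 of -0.42 ± 1.23. The 4 genes of the mannose 6-phosphate pathway, which shares Igf2r, had 3 log2 fold changes below 0 and 1 above, with a median of -0.15. M6pr, the cation-dependent receptor, had 0.19 ± 0.22, Nagpa -0.32 ± 0.24, Gnptg -0.27 ± 0.42 and Gnptab -0.04 ± 0.30.

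**Figure D4:**
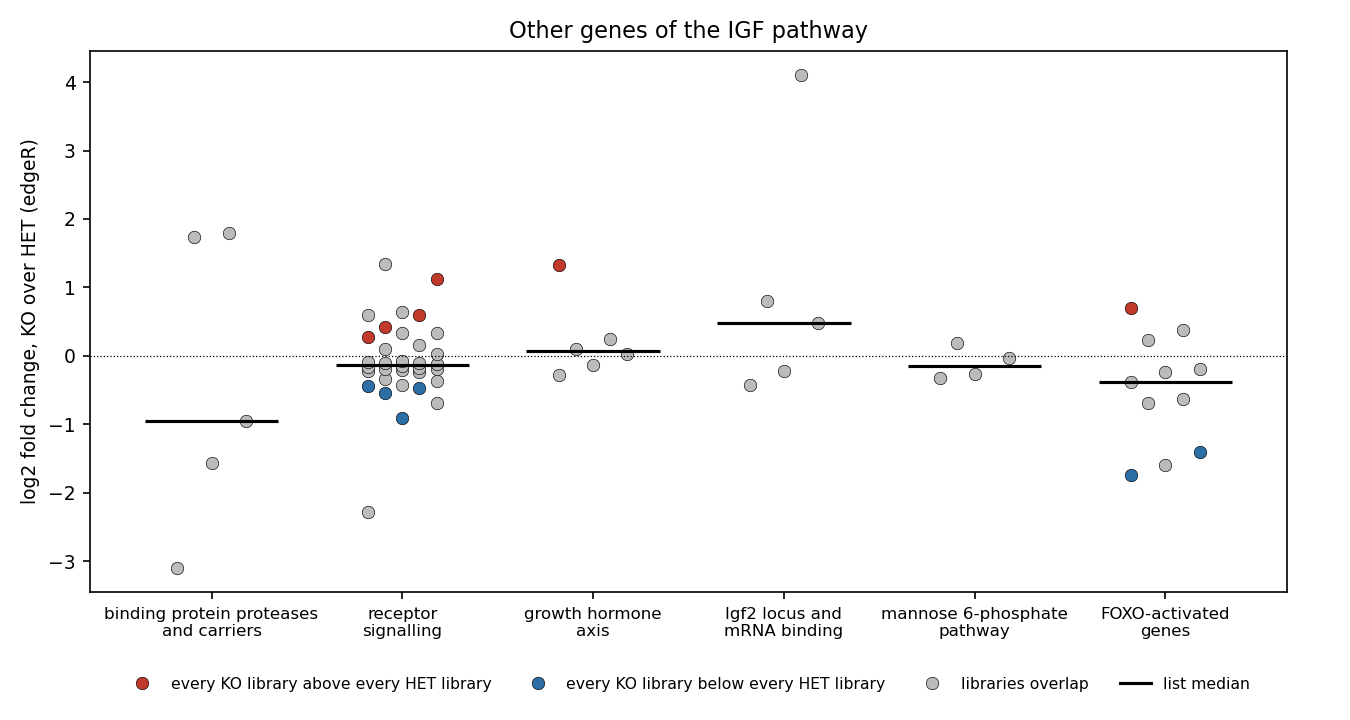
Each point is the edgeR log2 fold change, KO over HET, of 1 gene of a pathway list, red or blue where every KO-labelled library lay above or below every HET-labelled one, with a line at the list median. The medians lie between -0.94 and 0.48, and receptor signalling holds 4 red and 4 blue genes.

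The genes whose pattern over the 6 libraries was most like that of Igf1 were, by Pearson correlation of log2(CPM + 0.5) among 10579 genes, Tbxa2r, Aoc3, Cltc, Ttc8 and Bicc1, with coefficients from 0.98 to 0.99. Tbxa2r, the thromboxane A2 receptor, stood at 0.614, 0.129 and 0.833 CPM in KO-labelled replicates 1 to 3, against 17.04, 11.7 and 7.06 CPM in HET-labelled replicates 1 to 3. Aoc3, an amine oxidase of vessel walls and fat, stood at 3.55, 0.930 and 2.54 CPM in KO-labelled replicates, against 135, 51.8 and 28.7 CPM in HET-labelled replicates. Cltc, the clathrin heavy chain, followed the same order of libraries within 1.41-fold, so likeness of pattern says nothing of the size of a difference. By Spearman rank, 64 of the 10579 genes ordered the 6 libraries exactly as Igf1 did. Igfbp6, the member with the highest mean in the authors' deposited RPKM, was followed most closely by Loxl1, Nnmt, Zfp385a, Eno2 and Trim35, all lowest in KO replicate 2. Nnmt, nicotinamide N-methyltransferase, stood at 45.6, 0.336 and 30.4 CPM in KO-labelled replicates, against 63.97, 62.2 and 61.9 CPM in HET-labelled replicates.

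The summed fibroblast markers were ordered by label in the same way as Igf1 and the binding protein sum. In bulk RNA, fewer cells of a type and less RNA per cell cannot be told apart. The 10 fibroblast markers, 9 to 10 of which reached 3 counts in each library, summed to 5498, 3183 and 6508 CPM in KO-labelled replicates 1 to 3, against 18290, 8754 and 7827 CPM in HET-labelled replicates 1 to 3. Like Igf1, this sum was lower in every KO-labelled library, though the lowest HET-labelled sum was close to the highest KO-labelled one. Vim was the largest gene of the sum in every library but HET replicate 1. It overlapped between labels, at 2020, 2870 and 4387 CPM in KO-labelled replicates against 4027, 3457 and 3110 CPM in HET-labelled replicates. Within the list 3 of 10 genes, Col1a1, Col1a2 and Col3a1, separated the labels, all lower under the KO label, where 7.42% of all genes did so. The others overlapped, among them Dcn with a log2 fold change of 0.10. The 6 adipocyte markers, of which Adipoq had at most 0.118 CPM, summed to 7.01, 4.34 and 10.98 CPM in KO-labelled replicates, against 28.4, 19 and 24.4 CPM in HET-labelled replicates. Pparg carried this separation, and without it the other 5 genes overlapped at 6.03, 2.43 and 4.72 CPM in KO-labelled replicates and 2.66, 10.2 and 10.3 CPM in HET-labelled replicates. Of the 6 genes, 4 were too low to be tested. The 10 pericyte and smooth muscle markers summed to 1376, 123 and 2256 CPM in KO-labelled replicates, against 5745, 6802 and 1873 CPM in HET-labelled replicates. Acta2 made most of this sum in every library but KO replicate 2, where Mcam at 76.35 CPM was the largest part. The 8 cycling markers summed to 740.4, 2262 and 623 CPM in KO-labelled replicates, against 962.5, 248 and 429 CPM in HET-labelled replicates. The part of these in the differences of Igf1 and the binding proteins was not tested.

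Macrophages also express Igf1, and the macrophage marker Adgre1 was at 0, 0 and 5.71 CPM in KO-labelled replicates 1 to 3, against 0, 18.1 and 0 CPM in HET-labelled replicates 1 to 3. Ptprc, the pan-leukocyte marker, was at 0.0455, 0 and 5.67 CPM in KO-labelled replicates, against 0, 8.19 and 0.0392 CPM in HET-labelled replicates. Csf1r, the receptor for macrophage colony-stimulating factor, was at 4.78, 0.491 and 24.3 CPM in KO-labelled replicates, against 20.8, 43.6 and 16.6 CPM in HET-labelled replicates. Among the 4 libraries without Adgre1, Csf1r and Igf1 were both higher under the HET label, but Cd68, Cd14 and Lyz2 overlapped between labels. In KO replicates 1 and 2 Cd68 was at 2.71 and 1.71 CPM, Cd14 at 16.1 and 9.51 CPM and Lyz2 at 4.94 and 4.44 CPM. In HET replicates 1 and 3 they were at 0.638 and 1.77, 6.62 and 11.1, and 3.08 and 20.9 CPM. In KO replicate 3 Csf1r was high while Igf1 was low. The part of these cells in the level of Igf1 was not tested. Of the 10 epithelial markers, 6 to 10 were at 3 counts or more in each library. The 10 summed to 28.4, 88.3 and 28.5 CPM in KO-labelled replicates, against 65.8, 17.9 and 18.98 CPM in HET-labelled replicates. The keratin Krt19 made most of this sum in every library but KO replicate 2. Krt19 stood at 27.2, 0.542 and 17.8 CPM in KO-labelled replicates, against 64.1, 12.97 and 16.2 CPM in HET-labelled replicates. The epithelial sum of HET replicate 1 was thus nearly all Krt19. The 8 endothelial markers summed to at most 13.1 CPM in any library.

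**Figure D5:**
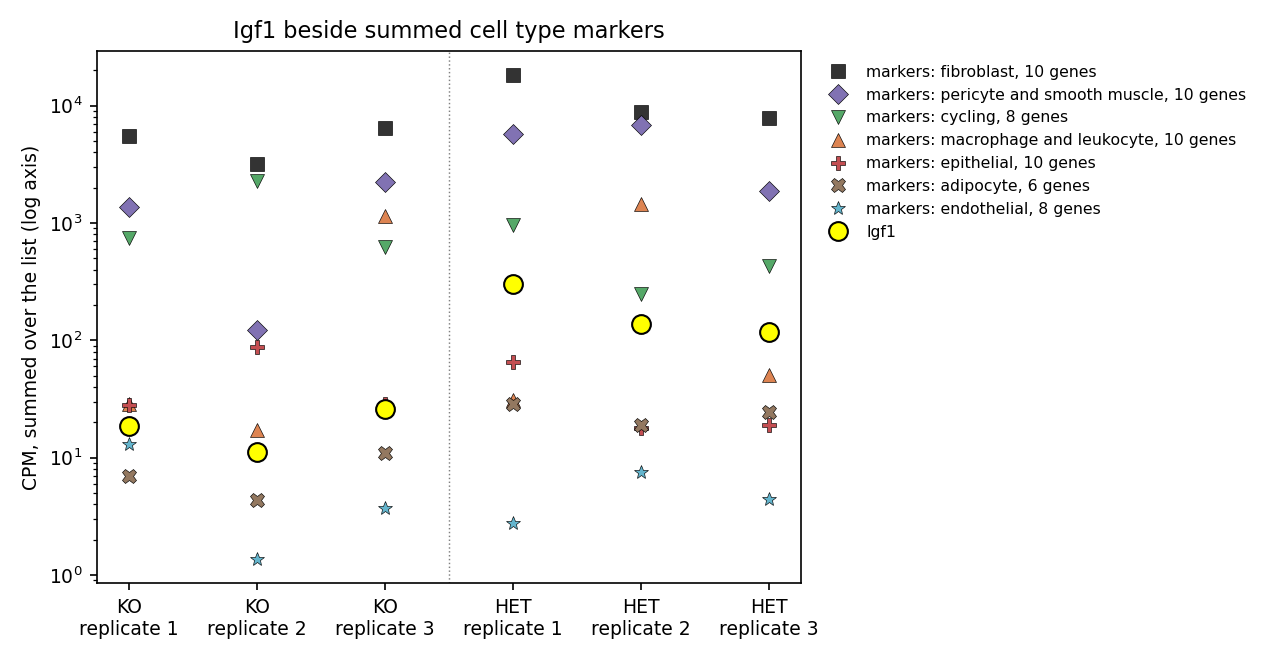
Igf1 (yellow circles) and the summed CPM of 7 marker lists are plotted for each library on a log axis, KO-labelled libraries left of HET-labelled ones. Igf1 and the fibroblast and adipocyte sums are lower in all 3 KO-labelled libraries. Only 3 of the 10 fibroblast genes separate the labels singly, where 7.42% of all genes are lower in this way. The adipocyte sum separates the labels through Pparg. The macrophage and leukocyte sum is high in KO replicate 3 and HET replicate 2, mostly through Lyz2.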

How the data were processed

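For every library the authors deposited estimated counts per gene, unscaled, and RPKM values. Tools named by the submitters' processing notes were Bowtie2, cutadapt 1.2.1 and Partek, with GRCm38 and mm10. The sources used here do not give how reads were counted, or whether by strand. Of 48408 rows per table, 30 that held a biotype word in place of a gene were left out, and 7 symbols on more than 1 row were summed. Gene symbols were matched to GENCODE M21.

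Estimated counts were rounded, filtered with filterByExpr, TMM-scaled and given to the two-sided quasi-likelihood F test of edgeR 4.0.16 (R 4.3.3), KO against HET, with Benjamini-Hochberg adjustment over 17584 genes and a threshold of 0.05. The SE of a log2 fold change is its size over the square root of F. Groups came from the genotype label, and replicates were numbered in accession order. Within a label, chi-square per degree of freedom between libraries was 155 to 338, beyond counting noise, and this does not tell separate animals from separate cultures or preparations. A floor of 3 counts was 0.0706 to 0.12 CPM, which covers counting error only.

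For 91.3% of 10959 genes with at least 100 counts in every library, the length behind the authors' deposited RPKM was within 1% of 1.225 times the genomic span, introns included. Levels of different genes were therefore set as CPM per kilobase of GENCODE M21 exon union, in place of the planned RPKM, which was kept as an alternative.

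The members, gene lists, rules and alternatives were chosen with earlier results of these data known. Genes named were Tgfb1i1, the members, the 5 genes most correlated with Igf1 and with the member of highest mean RPKM (mean of at least 5 CPM, without unnamed gene models), and up to 4 genes of smallest unadjusted p in each pathway list. Marker genes and the untested Igfbp1, Igfals and Igfbpl1 were named beside these, and Igf2os was named after its values were seen. Alternatives were other scaling factors, filters and pseudocounts, DESeq2 1.42.0, limma 3.58.1 (voom, and RPKM on the log2 scale), a block for the title number found under both labels, leaving out libraries and, for shares, other gene lengths, of which the longest transcript was chosen after seeing the data.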

Additional observations from a re-analysis of the deposited data

How the results depend on the processing

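DESeq2 called 214 genes in all, or 1.18% of 18097, against 0 with edgeR. Among them were 1 of 10 members (Igf1) and, over all the pathway lists, 1 other gene (Txnip, from the list of 12 FOXO-activated genes). Over 17 alternatives Igf1 kept its direction, with log2 fold changes of -3.91 to -1.19 and adjusted p from 1.32e-06 (DESeq2) to 0.975, and on leaving out each library it ran from -3.64 to -2.77. Igfbp3 (-3.01 to -1.57), Igfbp5 (-4.19 to -0.75), Igfbp6 (-3.01 to -1.28) and Igfbp7 (-2.04 to -1.14) also kept their direction on leaving out each library. Igf2 ran from -1.44 (without KO replicate 2) to 3.20, Igf1r from -0.30 (without HET replicate 1) to 0.35, with -0.01 without KO replicate 1, Igfbp2 from -2.97 to 1.199 (without HET replicate 2), Igfbp4 from -2.40 to 1.48 (with -0.05 without HET replicate 1) and Igf2r from -0.44 to 0.24 (0.24 without KO replicate 2, 0.20 without HET replicate 1, and 0.01 without KO replicate 3 or HET replicate 2). Igf2r also became 0.11 with library size alone, 0.0336 on log2(RPKM + 1) with and without a filter and 0.0505 on log2(RPKM + 0.1), and Igfbp4 became -1.94 with limma-voom, -0.43 on log2(RPKM + 1) with and without a filter and -1.23 on log2(RPKM + 0.1). The cause was not tested. Members lower under the KO label numbered 5 (without HET replicate 2) to 8. Library size alone moved the median of all genes to 0.15. On deposited RPKM, which divides by genomic span, Igfbp7 made 7.82% of the binding protein sum in KO-labelled and 7.62% in HET-labelled libraries on average, against 42.7% and 44.4% per kilobase of exon. By Spearman rank, 3 of the 5 genes named as like Igf1 remained at the top rank. No paired analysis was possible because the labels share only 1 title number. With a replicate block for that number, Igf2r was 0.0181, 6 members were lower under the KO label and 0 genes were called. With 3 libraries a label, a difference had to be large beside the spread between libraries to pass.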
